A study of Zea mays subsp. mays with 8 samples.

Results

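Maize start regions that were listed in shoots and missing from roots were described as a group of 1156 loci. The assay was CAGE (cap analysis of gene expression): capped 5′ ends are captured, and the first bases of each are sequenced as a tag and counted. The labels give 8 libraries from shoots and roots of 14-day-old wild-type, untreated seedlings of B73 and A632, both inbred lines, with 2 libraries in each of 4 groups and 5 seedlings pooled per library. The files hold 4 sets of start-site clusters, named B73_S, B73_R, Mo17_S and Mo17_R, with 1 value per cluster and no value per library. The B73 names match the B73 shoot and root labels. The line Mo17 is in none of the labels, so the other 2 sets are called by their names here, with S and R read as shoot and root, and no source used here says which labelled libraries they hold.

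Same-strand clusters of all 4 sets sharing 1 bp or more were merged, which turned 75681 clusters into 27756 loci. Members were chosen by their listing: a cluster in B73_S and in Mo17_S, and none in B73_R or Mo17_R. Loci inside dense runs were left out, a run being at least 10 dominant (strongest) sites of a set with gaps of at most 2000 bp. Outside runs 12470 loci had clusters in both shoot sets, and the 1156 members made up 9.27% of them. The other 11314, called shared loci below, also had a cluster in at least 1 root set, and 9757 of these in both. The absence from roots is what chose the members, so it is no finding. A further 1696 loci had the same listing but lay in dense runs. At that threshold, 43 members in groups of 9 dominant sites had median signals of 7.04 in B73_S and 10.8 in Mo17_S, and 185 loci of the same listing in runs of 10 sites had 7.19 and 7.70.

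CAGE clusters mark core promoters, the short stretches where RNA polymerase II begins transcription. Some core promoters start at a single base or within a few bases (sharp), often with a TATA box at a fixed distance upstream, and others spread their starts over many bases (broad). A shoot of this age is largely leaf, a tissue known for its high expression of photosynthesis genes, and roots lack mature chloroplasts. CAGE data of many species also hold weaker tags inside gene bodies, downstream of a strong start. The files pair no locus with a gene and name no genome build, so loci are given by the position of their dominant site in the files' own coordinates.

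Depth bears on how an absence can be read. Tags at dominant sites, recovered from the normalized values, numbered 2394924 in B73_S, 3409185 in Mo17_S, 1267305 in B73_R and 2797561 in Mo17_R. The B73 root set thus had the fewest. These tags cover 1 base per listed cluster and are not library totals. The B73 root libraries had been amplified for more PCR cycles than the others, per the labels' protocols, and this cannot be told apart from that group. Of the shared loci, 1256 were listed in Mo17_R but not in B73_R and 301 in B73_R but not in Mo17_R. These loci lay just outside the rule. Their root signal was mostly low, with a median of 3.09 in Mo17_R and 1.57 in B73_R, and highest values of 789.9 and 326.5. Below 1 were 292 (23.2%) and 114 (37.9%) of them. Among loci listed in both root sets, 2.32% were below 1 in Mo17_R and 7.31% in B73_R. A missing root cluster therefore says that no root cluster was listed, not that the site was silent. In bulk tissue, fewer cells of a type and less RNA per cell cannot be told apart.

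Members were mostly weak start sites. Their signal in B73_S had a lowest value of 1.76, a median of 6.03 and a highest value of 522.3. In Mo17_S the lowest, median and highest values were 2.34, 8.01 and 359.5. Shared loci had medians of 10.4 and 13.2 in the same sets. Low signal was not particular to members, since the 1557 shoot loci listed in 1 root set had medians of 5.41 and 7.61. Members held 3.26% of all signal in B73_S and 3.43% in Mo17_S. The share of shoot loci that were members was lower at each step of the weaker of both shoot signals from 2 upward. It was 15.7% (95% Wilson interval 14.5 to 16.9) of 3455 loci from 2 to below 5, 9.50% of 3190 from 5 to below 10, and 3.61% (2.20 to 5.86) of 416 loci at 100 or more. Below 2 it was 0.220%, a single member among 454 loci, so among loci in both shoot sets the weakest were listed almost only where a root cluster was listed too. Shared loci reached down to 0.531 in B73_S and 0.486 in Mo17_S. The thresholds for listing a cluster were not stated, so this step is not read as a trait of weak loci.

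The few strong members carried signals well above the rest. The strongest by the lower of both shoot signals lay on chromosome 6 (minus strand) with its dominant site at 1374196, where B73_S gave 522.3 and Mo17_S 359.5. Behind that site stood 2957 and 2098 recovered tags. Next came 255109372 on chromosome 1 (minus strand), with signals of 432.5 and 339.4, and 52379069 on chromosome 2 (plus strand), with 246.6 and 224.3. Each of these loci had the same dominant base in both shoot sets. The fourth lay at 37762911 on chromosome 10 (plus strand), with 363.9 in B73_S and 215.2 in Mo17_S, and put 93.6% and 84.8% of its strongest cluster's signal on that base. Chromosome 10 held 3 more of the 10 strongest, all on the plus strand and all broad in both sets. Their dominant sites in B73_S were 15804920 (signals 163.2 and 192.6), 132634590 (139.2 and 146.8) and 89936076 (131.2 and 192.0). The locus at 105239870 on chromosome 1 (minus strand) had signals of 172.5 and 254.1, a width of 75 bp in both sets, and dominant sites 74 bp apart. The last of the 10, at 223440757 and 223616756 on chromosome 3 (plus strand), belong to a repeated pattern described further on. At the other end, the weakest member lay at 214439799 on chromosome 5 (minus strand), with signals of 1.76 and 4.50 from 7 and 11 tags at its dominant sites.

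**Figure D1:**
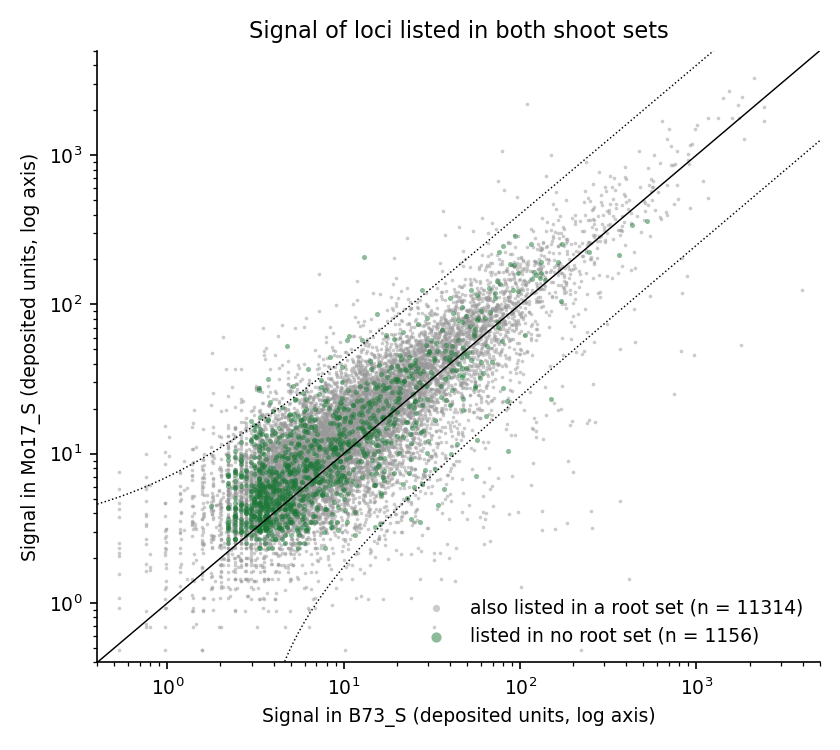
Signal of each locus in B73_S (x axis) and Mo17_S (y axis), both in deposited units on log axes, for 1156 loci listed in no root set (green) and 11314 also listed in a root set (grey). The solid line marks equal signal and the dotted lines 4-fold on log2(signal + 1); 18 members lie on or above the upper line and 8 on or below the lower one.

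The sets of both lines gave members similar signals. Spearman's rho was 0.705 across the 1156 members and 0.772 across shared loci, as a description, since loci share libraries. The median log2 ratio of Mo17_S over B73_S, on signal + 1, was 0.28 in members and 0.33 in shared loci, with standard deviations over loci of 0.77 and 0.91. A fixed difference of 4-fold or more on that scale stood in for a test, since no replicate values are given. By it 18 members (1.56%) were higher in Mo17_S, beside 2.09% of all 12470 shoot loci, and 8 members (0.692%) were higher in B73_S, beside 1.67%. On this scale the share of members higher in B73_S (Wilson interval 0.351 to 1.36) lay below that over all shoot loci. Adding 1 shrinks the ratios of weak loci more, and members were the weaker group. Neither this lower share nor the smaller standard deviation is thus read as a trait of members. For members higher in Mo17_S the interval (0.987 to 2.45) contained the 2.09% of all shoot loci, so no difference is read from that share. Tags recovered at dominant sites were also compared, scaled to each set's total of such tags. By these, 22 members were higher in B73_S and 23 in Mo17_S. Such tags cover 1 base of the strongest cluster, whereas the signal covers the whole locus. With a pseudocount of 0.1 in place of 1 the numbers were 15 and 35. Mo17_S thus kept a similar lead with the smaller pseudocount, while on tags the numbers were nearly equal. Shares over all shoot loci were not computed on tags or with the smaller pseudocount.

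The member with the widest gap between the shoot sets was 2060719 on chromosome 9 (minus strand), with a signal of 13.0 in B73_S and 207.6 in Mo17_S. Its width was 187 bp in B73_S and 2 bp in Mo17_S, where the dominant base held 86.8% of the signal of the locus's strongest cluster. The next were 157475904 on chromosome 3 (minus strand, signals 4.80 and 52.5), 93390802 on chromosome 10 (plus strand, signals 3.73 and 31.5), 72892089 on chromosome 1 (plus strand, signals 3.29 and 27.4) and 93154993 on chromosome 10 (minus strand, signals 3.29 and 26.9). In 3 of these 4 the B73_S cluster was a single base. In the opposite direction the largest gap was at 175755405 on chromosome 3 (minus strand), with 85.7 in B73_S and 10.4 in Mo17_S. It was followed by 109327464 on chromosome 9 (minus strand, signals 56.1 and 7.06), 158329292 on chromosome 1 (plus strand, signals 34.0 and 4.51), 4742316 on chromosome 1 (plus strand, signals 27.2 and 3.51) and 101881835 on chromosome 9 (plus strand, signals 149.9 and 23.2). None of these 5 was a single base in either set. The dominant sites of the shoot sets were 59 bp apart at 157475904 and 149 bp apart at 175755405. With no replicate values in either shoot set, no replicate check exists for any of these differences.

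Members were narrower than shared loci. Width runs from the base where a cluster's summed signal reaches 10% to the base where it reaches 90%, and clusters of at most 10 bp were called sharp. The median width was 7 bp in B73_S and 6 bp in Mo17_S, against 28 bp and 30 bp in shared loci. The 1557 loci listed in 1 root set lay between, with medians of 12 bp and 21 bp, and 48.9% (46.4 to 51.4) and 42.0% (39.6 to 44.5) of them were sharp. Sharp clusters made up 55.8% of members in B73_S (52.9 to 58.6) and 56.9% in Mo17_S (54.0 to 59.7), against 37.6% (36.7 to 38.5) and 36.1% (35.2 to 37.0) of shared loci. In both shoot sets at once 536 members (46.4%) were sharp, beside 29.4% of all 12470 shoot loci, and 389 members (33.7%) were broad. The 231 members left over were sharp in B73_S alone (109) or in Mo17_S alone (122). The rule favours narrow loci, because a wide locus has more bases on which a root cluster can overlap it. The median span of a merged locus was 20 bp in members and 69 bp in shared loci, and how much of the contrast in width comes from the rule was not tested.

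Clusters with a width of 1 bp made up much of the sharp class. Such a width leaves room for weaker tags on other bases. A width of 1 bp was found in 297 members in B73_S (25.7%, 23.3 to 28.3) and in 306 in Mo17_S (26.5%, 24.0 to 29.1), against 10.3% and 8.73% of shared loci. Loci listed in 1 root set again lay between, with 20.9% (19.0 to 23.0) and 15.6% (13.9 to 17.5). In both sets at once 198 members (17.1%) had this width. The strongest of these lay at 1933223 on chromosome 5 (plus strand), with signals of 72.2 and 118.5 and 494 and 1006 tags. The next were 5997908 on chromosome 8 (plus strand, signals 54.7 and 61.3) and 82223025 on chromosome 4 (plus strand, signals 46.0 and 44.4). At all 3 the dominant base held at least 88.2% of the strongest cluster's signal in each set. The widest members, by the smaller of both widths, were 38743737 on chromosome 8 (minus strand, 198 bp in both sets), 3530339 on chromosome 5 (plus strand, 191 bp in both) and 73626988 on chromosome 10 (minus strand, 184 and 182 bp). Their signals were between 4.83 and 27.7.

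**Figure D2:**
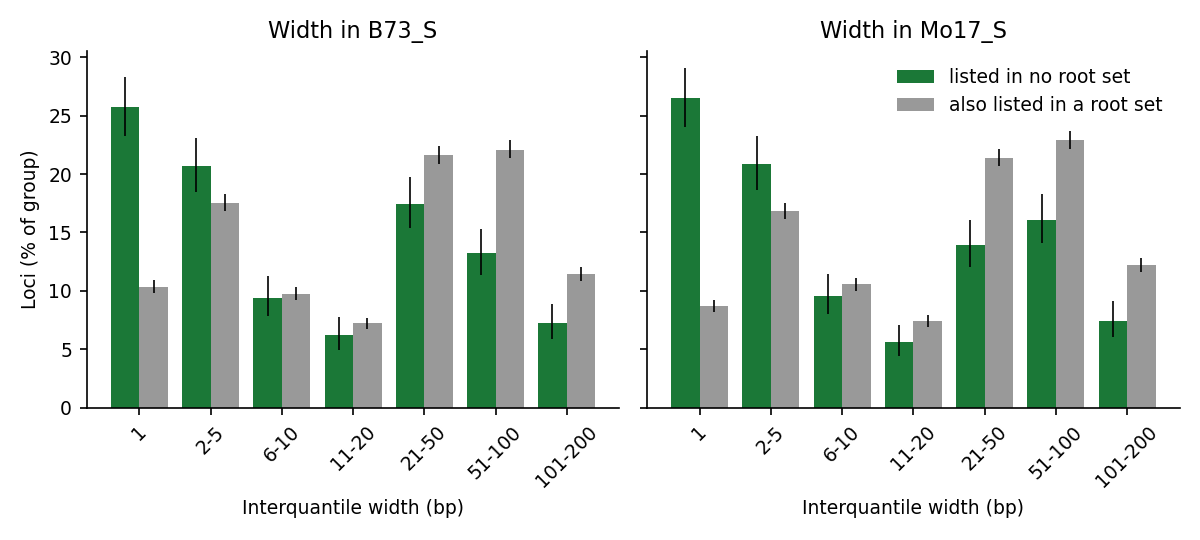
Share of loci (y axis, percent of each group, with 95% Wilson intervals as error bars) by interquantile width in bp (x axis), in B73_S (left) and Mo17_S (right), for members (green) and shared loci (grey). Widths of 1 bp make up 25.7% and 26.5% of members against 10.3% and 8.73% of shared loci. From 6 bp upward the shares of shared loci are the higher ones, with overlapping intervals up to 20 bp.

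The narrow shape was seen at most tag depths. With the lower of both dominant-site tag numbers from 10 to below 20, 50.5% of 386 members were sharp in both sets (45.6 to 55.5) against 20.8% of 2886 shared loci (19.4 to 22.3). From 20 to below 50 tags the shares were 50.7% and 25.5%, and from 100 to below 1000 they were 66.7% of 78 members (55.6 to 76.1) and 45.3% of 1559 shared loci (42.8 to 47.8). From 50 to below 100 tags the intervals overlapped, with 39.5% (31.0 to 48.6) and 32.3% (29.9 to 34.9). From 5 to below 10 tags the shares were 26.4% and 18.4%. These steps are not independent of width, since tags of narrow clusters pile up on the dominant base.

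The dominant base was mostly the same in both shoot sets. It was identical in 820 members (70.9%, 68.3 to 73.5), beside 64.3% of all 12470 shoot loci. It was 1 to 10 bp away in 159 members and more than 10 bp away in 177, with a widest separation of 182 bp. Narrow clusters leave little room for a shift, and among loci broad in both sets the shares were close, 56.8% of 389 members (51.8 to 61.6) and 55.9% of 6102 shared loci (54.7 to 57.1). At matched tag numbers the share with an identical base was higher in members in the middle steps. From 10 to below 20 tags it was 67.9% (63.1 to 72.3) against 55.6% (53.8 to 57.4) in shared loci, and from 20 to below 50 tags 82.6% (78.4 to 86.1) against 69.4% (67.8 to 70.9). The intervals overlapped in the other 3 steps, with 39.8% against 37.5% from 5 to below 10 tags, 83.3% against 77.5% from 50 to below 100, and 91.0% against 83.4% from 100 to below 1000.

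Members lay on all 10 chromosomes and on both strands, with 51.6% (48.7 to 54.4) on the plus strand. Chromosome 1 held 184 and chromosome 9 held 65. As a share of shoot loci, members ranged from 6.73% on chromosome 8 (5.41 to 8.34) to 10.7% on chromosome 4 (9.12 to 12.6). Both groups crowded toward the chromosome ends, and members lay in the middle more often than shared loci. Between 25% and 75% of a chromosome's extent, taken as its highest listed position, lay 39.3% of members (36.5 to 42.1) and 31.7% of shared loci (30.8 to 32.6). With the extent cut into 10 equal intervals, members made up 13.8% of the 595 shoot loci in interval 4 (11.2 to 16.8). The share was 7.18% of 1197 in interval 2 (5.85 to 8.79) and 7.35% of 1795 in interval 9 (6.24 to 8.65). Interval 1 held 15.1% of members and 15.1% of shared loci, and interval 10 held 17.6% and 19.6%.

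Members had close neighbours on the same strand more often than shared loci did. Merging takes overlapping clusters into a locus, so they do not count as its neighbours. Shared loci had the wider median span, 69 bp against 20 bp. How much of the contrast in neighbours comes from merging was not tested. Another locus of any set lay on the same strand within 1000 bp of 33.8% of members (31.2 to 36.6) and 11.9% of shared loci (11.3 to 12.5). A root-listed locus lay that close to 219 members (18.9%, 16.8 to 21.3) and to 9.02% of shared loci (8.51 to 9.57). Within 100 bp these shares were 2.77% and 1.64%. The side differed too, in terms of the direction of transcription. Of the 219 members, 159 (72.6%, 66.3 to 78.1) had the root-listed locus upstream, so that the member lay downstream of it. Of the 1021 shared loci with such a neighbour 36.6% (33.7 to 39.6) had it upstream. In members neither side prevailed at the shortest distance, or among neighbours of any set. Within 100 bp, 16 of 32 root-listed neighbours of members lay upstream (interval 33.6% to 66.4%), against 41.1% (34.2 to 48.3) for shared loci. The nearest locus of any set within 1000 bp lay upstream of 51.7% of members (46.7 to 56.6) and of 34.9% of shared loci (32.4 to 37.5). With groups of 5 to 9 dominant sites left out as well, 11.8% of the 990 members still counted (9.95 to 14.0) and 7.63% of 11055 shared loci (7.15 to 8.14) had such a neighbour, upstream in 68.4% and 36.1% of cases.

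**Figure D3:**
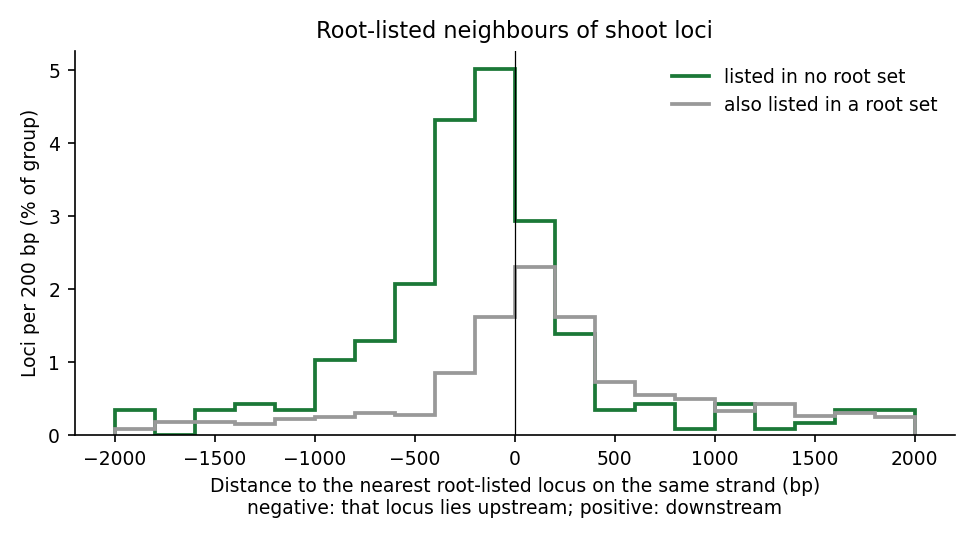
Distance in bp from each locus to the nearest root-listed locus on the same strand (x axis, negative where that locus lies upstream), as the percent of each group per 200 bp (y axis), for members (green) and shared loci (grey). Members peak where the neighbour lies up to 200 bp upstream (5.02%), and shared loci where it lies up to 200 bp downstream (2.31%).

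The root-listed loci upstream of members were strong in shoots and weak in roots. Their median signal, counted once per member and with 0 for a set without a cluster, was 132.8 in B73_S and 124.6 in Mo17_S, but 1.05 in B73_R and 1.39 in Mo17_R. On log2(signal + 1) the median shoot excess was 5.79 in the B73 sets and 5.52 in the Mo17-named sets, against 0.70 and 0.13 over all 11314 shared loci. The 159 members shared 118 such neighbours, none of them in a dense run. Without groups of 5 to 9 sites the upstream neighbours' medians were lower in shoots, at 34.2 in B73_S and 50.2 in Mo17_S, with 1.08 in B73_R and 2.02 in Mo17_R for 80 members. Upstream neighbours of 304 shared loci had medians of 2.79, 4.83, 1.99 and 4.46 in these sets under that setting. Members on their downstream side were weak, with medians of 5.12 in B73_S and 6.44 in Mo17_S. The upstream neighbour was the stronger in 135 of the 159 cases in B73_S and in 138 in Mo17_S. Where the neighbour was listed in B73_S, the member's median signal was 4.30% of it (149 cases). The 60 members with the root-listed locus downstream had neighbours that were also stronger in shoots, with neighbour medians of 21.5 and 19.7 in the shoot sets and 0.951 and 0.904 in the root sets. Median root signals of the neighbours were thus low on both sides of members. Upstream neighbours of shared loci also had low root medians, 1.99 and 4.46 under the setting above. Whether the neighbours' root signal bears on the missing root clusters was not tested. Whether the tags at members belong to the same transcripts as the neighbour's was not tested.

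**Figure D4:**
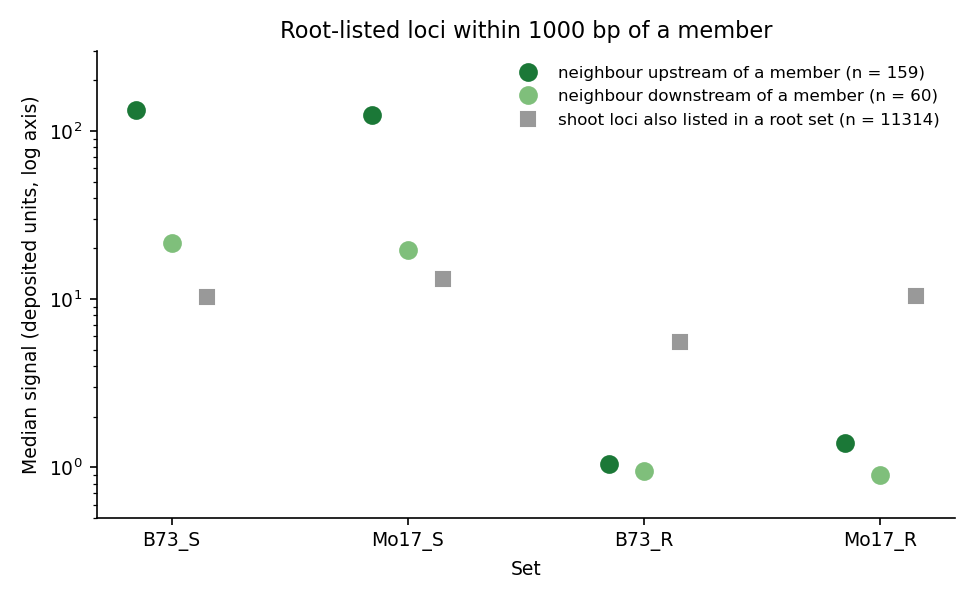
Median signal (y axis, deposited units, log axis) in each of the 4 sets of root-listed loci within 1000 bp upstream (dark green) or downstream (light green) of a member, and of all shared loci (grey squares). The upstream neighbours are at 132.8 and 124.6 in the shoot sets and at 1.05 and 1.39 in the root sets.

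Of the 3 members closest to a root-listed locus, 2 had it upstream. On chromosome 2 (minus strand) a single-base member at 137891648, with signals of 4.47 in B73_S and 3.80 in Mo17_S, ended 18 bp from a root-listed locus upstream. That locus had its dominant site at 137891759 in all 4 sets, with signals of 747.8 and 471.7 in the shoot sets and 4.76 and 4.92 in the root sets. Further members followed downstream of it at 137891626, 137891559 and 137891545. On chromosome 7 (plus strand) a member at 131227790 (4.11 and 5.66) lay 24 bp downstream of a locus with shoot signals of 365.1 and 641.3 and root signals of 1.70 and 2.49. The member closest to any root-listed locus, at 171020601 on chromosome 7 (minus strand, signals 15.8 and 29.0), had its neighbour 9 bp downstream. That locus was weaker than the member, with no cluster in B73_S or B73_R, a signal of 5.77 in Mo17_S and 0.276 in Mo17_R. It was the only member within 10 bp of a root-listed locus. Just outside the rule, 188 shared loci wider than 1 bp overlapped their root cluster by 1 bp at most, with median shoot signals of 6.56 and 7.11.

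Most members stood by themselves. No other locus of any set lay within 1000 bp on either strand of 722 members (62.5%, 59.6 to 65.2), against 85.8% of shared loci. These solitary members had median signals of 6.40 and 8.42, and 42.1% (38.6 to 45.7) were sharp in both sets, against 26.2% (25.3 to 27.0) of 9712 solitary shared loci. Between 25% and 75% of the chromosome's extent lay 43.1% (39.5 to 46.7) of them, against 32.2% (31.2 to 33.1). The contrasts in width and position were thus also present without neighbours. The 2 strongest members over 100000 bp from any root-listed locus of their strand were 52379069 on chromosome 2, at 177328 bp, and 89936076 on chromosome 10, at 209700 bp.

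Members also lay near each other. Another member was on the same strand within 1000 bp of 204 members (17.6%, 15.6 to 20.0). Without groups of 5 to 9 dominant sites, which fall short of the run rule and held 166 members, this share was 7.88%, and among members with a signal of 5 or more in both shoot sets it was 8.48%. With gaps of up to 10000 bp on either strand, 841 members were alone and the largest group held 6. It ran along chromosome 2 (plus strand) from a broad locus at 204830316, with signals of 52.0 and 72.2, over 538 bp to 5 weaker members with signals of 2.22 to 4.77 in B73_S. The strongest locus of that group was the one farthest upstream. A group of 5 on chromosome 4 (minus strand) was led by 190230004, with signals of 91.9 and 184.6, and 3 of its members lay downstream of it and 1 upstream. Another group of 5 on chromosome 6 was led by 1345044 on the minus strand (44.6 and 57.4) and held a plus-strand member at 1340736. The closest members on 1 strand were 47664650 and 47664661 on chromosome 3 (minus strand), with 8 bp between their spans.

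Opposite strands were more often occupied near members, on the downstream side above all. An opposite-strand locus lay downstream within 500 bp, facing the member, in 84 cases (7.27%, 5.91 to 8.91) against 0.530% of shared loci (0.412 to 0.682). A divergent opposite-strand locus, lying upstream within 500 bp, was found for 45 members (3.89%, 2.92 to 5.17) and 1.70% of shared loci (1.47 to 1.95). Where several such loci were near, the strongest in B73_S was taken. Of the 84 facing partners 36 were members themselves and 15 were root-listed, so that a pair of members can be counted from both sides. The closest facing pair of members, on chromosome 4 at 236369491 and 236369630, was separated by 8 bp and had B73_S signals of 2.61 and 16.7. A pair on chromosome 7 at 160295641 and 160295778 was of similar strength on both strands, with 21.8 and 29.4 in B73_S and 65.0 and 53.6 in Mo17_S. The closest divergent pair of members, on chromosome 7 at 152869781 and 152869937, was 55 bp apart, with B73_S signals of 2.80 and 4.59.

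A repeated pattern of members lay on chromosome 3 (plus strand). It was singled out after its values had been seen, as the largest group of members with gaps of up to 100000 bp, and it held 12. Apart from the members the pattern held weak clusters listed in only 1 shoot set. Its 4 strong loci, at 223440757, 223492976, 223539487 and 223616756, each spanned 13 bp and had the dominant base at the sixth position of the span in B73_S. Their signals in B73_S were 130.5, 122.2, 119.4 and 129.2, and in Mo17_S 161.1, 158.1, 164.0 and 150.9. The strong loci were thus nearly equal within each set. The other 8 members were weak, with signals of 3.29 to 9.34 in B73_S, and lay 324, 354 or 484 to 485 bp downstream of a strong locus. No root cluster was listed within the pattern on either strand. No sequence was read for these loci, and no source used here says how tags that match several places were mapped. Whether the 12 loci are separate measurements was not tested.

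**Figure D5:**
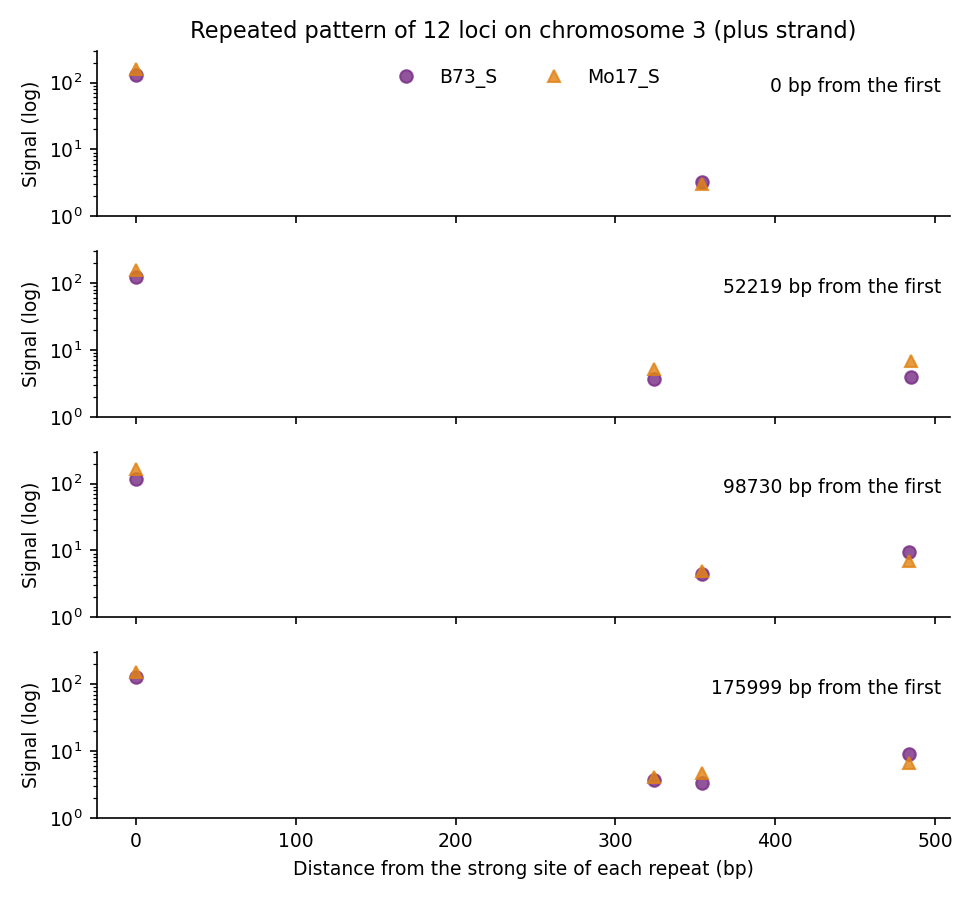
Signal (y axis, log axis) in B73_S (circles) and Mo17_S (triangles) of the 12 members of the repeated pattern, by distance in bp from the dominant site of the strong locus of each repeat (x axis). Each panel is 1 repeat, and the strong loci at 0 bp lie between 119.4 and 164.0 while the weak ones recur at 324, 354 and 484 to 485 bp.

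Few other look-alikes were found in a search within single strands of a chromosome that left out spans below 5 bp. The weak loci of the pattern above were thus not searched. Members on the same strand of a chromosome with equal span of at least 5 bp, equal dominant base within the span in both sets and signals within 2-fold formed 11 families with 24 members, of 790 members with such a span. Apart from the 4 strong loci on chromosome 3 each family was a pair. A pair on chromosome 3 (minus strand), from 47664709 to 47688644, spanned 7 bp with signals of 16.7 and 15.9 in B73_S, and a pair of 29 bp on chromosome 6 (plus strand) lay within 765 bp. The remaining pairs extended over at least 2331076 bp each.

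The mirror group, listed in both root sets and in neither shoot set, held 403 loci outside runs. Their median signals were 5.83 in B73_R and 9.13 in Mo17_R, and 75.2% were sharp in both root sets, beside 46.4% of members in both shoot sets. Tag numbers at dominant sites and normalization differ between the root and shoot sets, so the shares are given side by side.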

How the data were processed

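The authors deposited start-site clusters in 4 sets, each cluster with its signal, its dominant site, a width between signal percentiles 10 and 90, and a shape score on which no statement rests. Per the submitters' processing notes, Bowtie2 2.0.4 was among the tools. Which build, clustering tool, thresholds and pooled libraries lie behind the sets was not stated. The deposited signal follows a power law of tag numbers, with exponents of 0.888 in B73_S, 0.877 in Mo17_S, 1.09 in B73_R and 1.01 in Mo17_R. Inverting the law gave whole tags within 0.01 for 100% of dominant sites. Differing exponents stretch signal differently, so signals were compared mainly between the shoot sets. Tags carry no molecular identifiers in the labels' protocols.

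Loci were merged, and a locus counted as inside a run where any of its dominant sites lay within the span of a run of any set. The signal of a locus is the sum over its clusters of a set, and its width, dominant site and tags are those of the strongest. All but 19 members had 1 cluster per shoot set. Starts are 1-based. Without replicate values no test was run. Shares have 95% Wilson intervals, which take loci as independent and cover counting error only.

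Named loci are the 10 with the highest lower shoot signal and the 5 with the largest difference between shoot sets in each direction. The 3 widest, the 3 strongest with a width of 1 bp in both shoot sets, and the closest pairs, neighbours and largest groups are also named. The members and all rules were chosen with earlier results of these data known. Gene lists could not be scored. The steps were tested on simulated data. Computations ran in Python 3.11.15 (pandas 2.3.3, numpy 2.4.6, scipy 1.17.1), and plots in matplotlib 3.10.9.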

Additional observations from a re-analysis of the deposited data

How the results depend on the processing

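Of 95 recomputed values, 53 stayed within the error of the reported one, or for counts within 1.5 times, and 42 moved. With loci in dense runs kept there were 2852 members, of which 78.1% were sharp in B73_S and 78.5% in Mo17_S. The B73_S median was then 6.56, and 79.9% had the same dominant site. A root-listed locus lay within 1000 bp of 60.3%, another member of 64.3%, and 48.1% lay between 25% and 75% of the chromosome. Where each shoot signal had to reach 5, 613 members were left, with 45.8% and 48.1% sharp, medians of 12.3 and 14.8, and 5 and 9 beyond 4-fold. A root-listed locus was near 15.5% and another member near 8.48%. Without groups of 5 or more sites these neighbour shares were 11.8% and 7.88%, and with clusters up to 100 bp apart joined 14.8% and 12.9%, with 67.5% at the same dominant site. Without members within 500 bp of a root-listed locus they were 4.68% and 11.7%, and 53.1% were sharp in Mo17_S. Shares within 500 bp were 14.97% and 14.6%, and within 5000 bp 26.6% and 20.9%. Sharp at most 5 bp held for 46.4% in B73_S and 47.3% in Mo17_S, and at most 20 bp for 62.0% and 62.5%. Members higher in B73_S and in Mo17_S numbered 15 and 35 with a pseudocount of 0.1, 4 and 6 with 5, and 45 and 178 at 2-fold. On recovered tags, 22 were higher in B73_S. With at least 20 tags 84.0% had the same dominant site, and the central 1 of 3 equal parts of the chromosome held 23.2%. The values follow from which members, distances or thresholds each setting keeps. Placing loci in runs by their own clusters, an alternative chosen after seeing the data, moved no value. Applying the rule on 5 or more sites to shared loci and to neighbour signals, given with the neighbours above, was also chosen after seeing the data. Requiring 10 bp of overlap, or the whole shorter cluster, also moved none.

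No paired analysis was possible because the sets carry no replicate and no test was run. Leaving out a library was not possible for the same reason. Depth limits the absence from roots, above all in B73_R, the set with the fewest tags at dominant sites. Gene identity, sequence and the A632 labels could not be tied to these loci.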
